A study of Homo sapiens with 4 samples.

Results

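The miRNAs hsa-miR-224 and hsa-miR-452 are 2 of the 1733 mature miRNAs counted in small RNA libraries of liver cancer cells. They were taken by name and place, as the guide strands (the arm of the hairpin that is usually loaded into Argonaute) of 2 hairpins that lie in the same intron of GABRE. The study sequenced 4 cell populations. Hep3B and Huh7 are established hepatoma lines (HCC cells), and Hep3B-C and Huh7-C are hepatic cancer stem cell lines (HCSCs), stem-like cells that the authors had cultured from Hep3B and Huh7, respectively. No treatment, time point or genetic change was given for any of them, and how the HCSCs were cultured is not given in the sources used here. Each population had 1 library and no replicates, so each HCSC line is a single derivation and a difference between libraries cannot be told apart from a difference between cultures.

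MiRNAs are short RNAs that lower the translation and stability of target mRNAs, which they find mainly through the seed, bases 2 to 8 from their 5′ end. When a miRNA hairpin lies in an intron, it is cut out of the host transcript by Drosha and then trimmed by Dicer to a duplex, of which the guide arm is kept and the passenger arm (named with an asterisk here) is mostly lost. GABRE encodes the epsilon subunit of the GABA-A receptor, and miR-224 is among the miRNAs most often found raised in hepatocellular carcinoma relative to normal liver.

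The mature sequences show which part of each member reads its targets and that the members, although made from 1 intron, do not share a seed. They are RefSeq entries (GRCh38.p14), printed 5′ to 3′ with the seed in capitals, and both arms of both hairpins were matched.
hsa-miR-224 (5p arm): uCAAGUCAcuagugguuccguuuag
hsa-miR-224* (3p arm): aAAAUGGUgcccuagugacuaca
hsa-miR-452 (5p arm): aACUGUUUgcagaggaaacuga
hsa-miR-452* (3p arm): cUCAUCUGcaaagaaguaagug
The seed of miR-224, CAAGUCA, was found in 1 of the 2370 mature names of the RefSeq table, miR-224 itself. The seed of miR-452, ACUGUUU, was shared with 2 other entries, printed here to show that the likeness ends soon after the seed.
hsa-miR-4676-3p: cACUGUUUcaccacuggcucuu
hsa-miR-892c-3p: cACUGUUUccuuucugagugga
Of these, hsa-miR-4676-3p had 0 counts in all 4 libraries, and hsa-miR-892c-3p is not in the lists used here. Of the matched entries with this seed, hsa-miR-452 was the only one with counts. These seeds hold for the 5′ ends in RefSeq, since the counts do not show where the reads began.

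The hairpins give the context of both arms, shown here in capitals within each precursor.
MIR224: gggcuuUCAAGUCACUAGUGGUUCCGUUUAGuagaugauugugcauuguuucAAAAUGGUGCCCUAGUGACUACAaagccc
MIR452: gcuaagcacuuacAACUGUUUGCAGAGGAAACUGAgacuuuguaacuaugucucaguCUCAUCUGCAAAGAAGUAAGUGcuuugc
In GENCODE release 29 (GRCh38), MIR452 lay at chrX:151959628-151959712 and MIR224 at chrX:151958578-151958658, both on the minus strand and both in intron 6 of GABRE, a gene of 9 exons in the transcript used. They were 969 bases apart. On the direction of transcription MIR452 came first, 14967 bases after the start of the host gene, and MIR224 came at 16021 bases. The counts themselves carry no positions, and no coordinates were converted from the older build used by the authors.

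**Figure D1:**
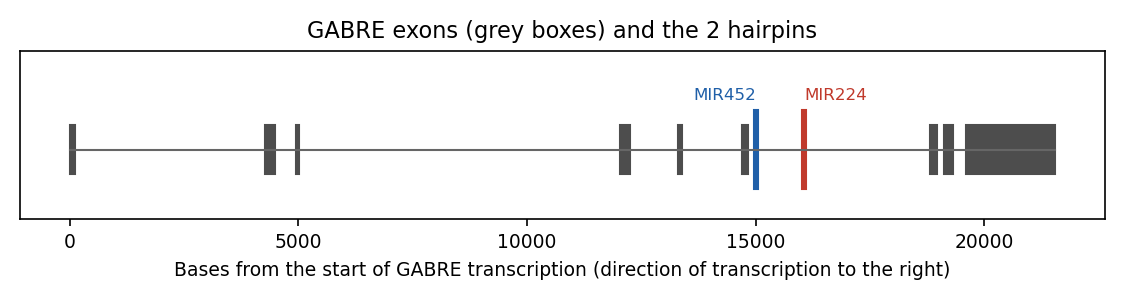
Map of GABRE drawn to scale, with the x axis in bases from the start of transcription, grey boxes for the 9 exons and coloured bars for the hairpins. MIR452 (14967 bases) and MIR224 (16021 bases) sit side by side in the intron between exons 6 and 7.

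The promoter of the host gene is shown because both members would be transcribed from it as part of 1 transcript. It covers 250 bases before and 50 after the RefSeq start of GABRE (chrX:151974627-151974926, minus strand, GRCh38.p14), with each CG in capitals.
GABRE promoter: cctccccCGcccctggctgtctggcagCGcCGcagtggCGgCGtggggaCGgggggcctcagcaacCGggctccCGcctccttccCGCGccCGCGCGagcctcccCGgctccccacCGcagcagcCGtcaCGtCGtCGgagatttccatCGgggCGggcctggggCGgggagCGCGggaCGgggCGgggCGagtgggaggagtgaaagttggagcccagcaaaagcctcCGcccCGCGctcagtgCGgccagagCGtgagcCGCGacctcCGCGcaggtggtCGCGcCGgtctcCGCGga
It held 41 CG dinucleotides (a motif that reads the same on both strands), against a median of 14 over 35116 promoters of the same length, and 6.69% of those promoters held as many. The letters TATAAA were not found in this window on either strand, as was true of all but 11.5% of promoters. Neither methylation nor GABRE mRNA was analysed here.

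The libraries held between 1739278 (Hep3B) and 5741567 (Huh7) miRNA counts, which were 10.4% of the total reads in Hep3B and between 35.2% and 54.1% in the other 3 libraries. Levels are given as TPM, the counts per 1000000 total reads of the library, and the smallest level that the depth can show, 3 counts, was 0.179 to 0.282 TPM. Of the 5 hepatocyte markers, 4 to 5 were detected in each library, with summed levels of 11008 to 115662 TPM. Hsa-miR-192 was the largest part of each sum. Hsa-miR-122, the main hepatocyte miRNA, was at 397 counts in Hep3B against 144814 to 489443 elsewhere. Hsa-miR-885-5p went the other way, with 186 counts in Hep3B and 159 in Hep3B-C against 2 in Huh7 and 0 in Huh7-C. The 5 embryonic stem cell markers (the miR-302 family and miR-367) were at 0 in all 4 libraries, the HCSCs included. The 5 blood cell markers summed to 0.0648 to 0.477 TPM in 3 libraries and to 74.9 TPM in Huh7, nearly all of it hsa-miR-451 (773 counts), with hsa-miR-144 at 0 throughout. That level was 0.467 TPM in Huh7-C, where the members were at 248 TPM (miR-224) and 791 TPM (miR-452). Of the 2 neural markers, hsa-miR-124 was at 0 throughout, while hsa-miR-9 was higher where the members were, at 154 counts in Hep3B, 844 in Hep3B-C, then 9765 in Huh7 and 11349 in Huh7-C. The sum of the 4 fibroblast and smooth muscle markers was mostly hsa-miR-143 and went the opposite way. It was 25.5 and 111 TPM in Hep3B and Hep3B-C against 4.80 and 1.77 TPM in Huh7 and Huh7-C. Within that list, hsa-miR-199a-5p had 1 and 0 counts in Hep3B and Hep3B-C against 17 and 4 in Huh7 and Huh7-C. Hsa-miR-214 had 0 counts in both Hep3B populations against 1 and 2. The endothelial marker hsa-miR-126 had 807 to 2031 counts, and the 3 muscle markers summed to 0.894 to 13.0 TPM. Their part in the levels of the members was not tested.

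MiR-224 was near or below detection in both Hep3B populations and abundant in both Huh7 populations. It was counted 0 times in Hep3B, 1 time in Hep3B-C, 2326 times in Huh7 and 2662 times in Huh7-C. These counts correspond to 0, 0.0648, 219 and 248 TPM. The 95% exact binomial interval, which covers counting error only, was 210 to 228 TPM in Huh7 and 239 to 258 TPM in Huh7-C. With 0 counts in Hep3B, a level of up to 0.220 TPM, the upper limit of that interval, remained possible. In the order of levels, Huh7-C and Huh7 did not overlap by counting error, whereas Hep3B-C and Hep3B could not be separated.

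MiR-452 followed the same pattern at a higher level. It was counted 0 times in Hep3B, 3 times in Hep3B-C, 9769 times in Huh7 and 8478 times in Huh7-C, or 0, 0.194, 920 and 791 TPM. Its interval was 902 to 938 TPM in Huh7 and 774 to 808 TPM in Huh7-C, so that here Huh7 was the higher of the pair. In both Huh7 populations hsa-miR-452 ranked 30 among the miRNAs by count, with 0.170% of the miRNA counts in Huh7 and 0.210% in Huh7-C. Hsa-miR-224 ranked 72 in Huh7 and 52 in Huh7-C, with 0.0405% and 0.0658%.

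**Figure D2:**
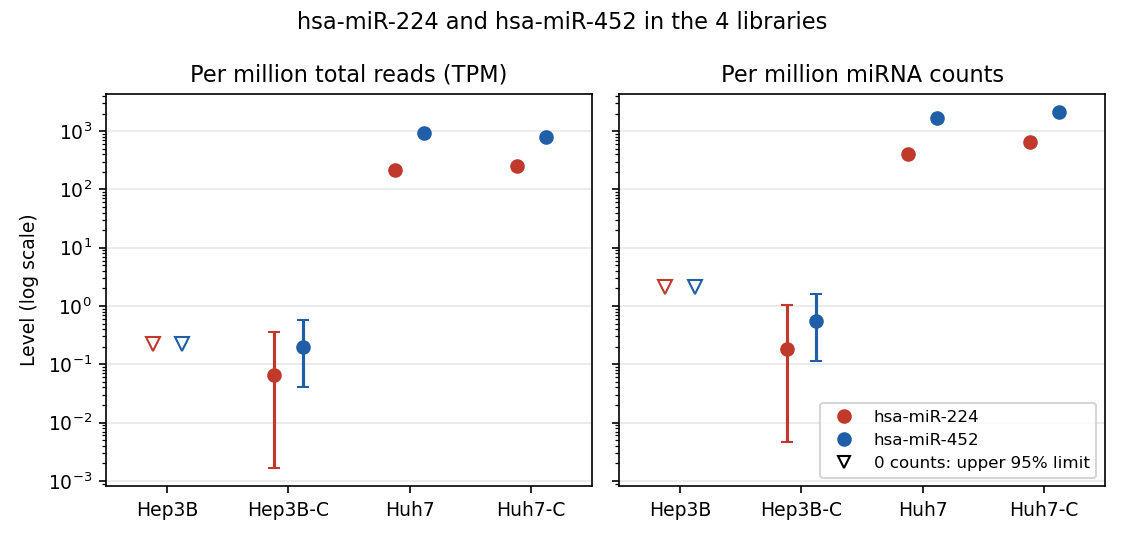
Level of hsa-miR-224 (red) and hsa-miR-452 (blue) in the 4 libraries on a log axis. It is shown as TPM (left) and scaled in the same way to the miRNA counts (right). Bars are 95% exact binomial intervals (shorter than the symbols in the Huh7 libraries), and open triangles mark the upper limit where the count was 0. In both panels the Huh7 and Huh7-C values, 219 to 920 TPM on the left, stand far above the Hep3B and Hep3B-C values.

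The comparison of HCSCs with their HCC cells asked whether a miRNA changed with the stem-like state. Within each pair the counts were compared by Audic and Claverie's exact test for Poisson counts, with Benjamini-Hochberg adjustment, and calling a miRNA required a 2-fold difference or more with an adjusted p no larger than 0.01. Such a test compares 2 libraries, not 2 conditions. Neither member was called in either pair. In the Hep3B pair 33% of the 834 miRNAs tested were called higher in Hep3B-C and 2.52% lower. In the Huh7 pair 2.98% of the 772 tested were called higher in Huh7-C and 17.1% lower.

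In the Hep3B pair, neither 0 against 1 count for miR-224 nor 0 against 3 counts for miR-452 was a detectable difference at this depth (Audic and Claverie exact test, adjusted p = 1.0 and 0.347), and no fold is given, since both libraries were at or under the floor of 3 counts. In the Huh7 pair the members had narrow intervals and moved in opposite directions on the TPM scale. The log2 fold-change of miR-224 (Huh7-C over Huh7) was 0.18 (95% exact interval from the counts 0.10 to 0.26), with an adjusted p of 3.78e-05. That of miR-452 was -0.22 (interval -0.26 to -0.17), with an adjusted p of 2.52e-23. Both differences were larger than counting error and much smaller than the 2-fold threshold. Allowing for variation between cultures (edgeR exact test, biological coefficient of variation set to 0.2), the adjusted p was 0.985 for miR-224 and 0.944 for miR-452.

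The direction of miR-452 in the Huh7 pair depended on the library size used. The share of miRNA among the total reads differed between Huh7 and Huh7-C, and over the 333 miRNAs that reached 10 counts in each library the median log2 fold-change per total reads was -0.51. Relative to that median, miR-224 stood 0.69 higher and miR-452 stood 0.29 higher, under every library size, since a change of size shifts all miRNAs together. Scaled to the total miRNA counts, the log2 fold-change was 0.70 for miR-224 and 0.30 for miR-452. It was 0.50 and 0.10 with TMM sizes, and 0.76 and 0.36 with DESeq2 size factors. MiR-224 was thus higher in Huh7-C under all 4 sizes and miR-452 was higher under 3 of the 4, and neither reached 2-fold under any of them. Among these miRNAs the fold-change of miR-224 lay at percentile 73.9 and that of miR-452 at 59.2.

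**Figure D3:**
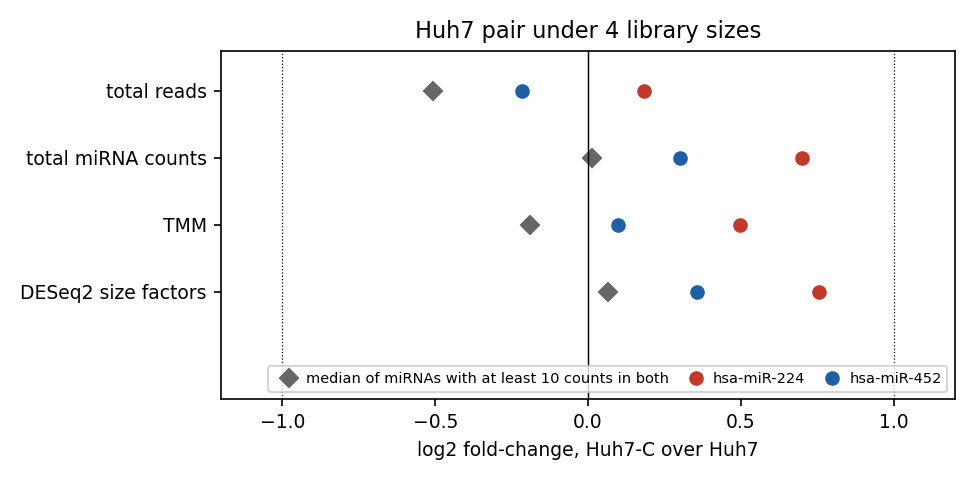
Log2 fold-change of Huh7-C over Huh7 for hsa-miR-224 (red), hsa-miR-452 (blue) and the median of the 333 miRNAs that reached 10 counts in each library (grey diamonds) under 4 library sizes, with dotted lines at the 2-fold threshold. The distances from the median (0.69 and 0.29) are the same in each row, while the sign of miR-452 turns from -0.22 under total reads to between 0.10 and 0.36 under the others.

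A model over all 4 libraries was fitted with edgeR (quasi-likelihood test) with the parent line as a block, in which the lines serve as replicates. Of the 443 miRNAs that reached 10 counts in 2 or more libraries, 0% were called higher and 0% lower in HCSCs, the smallest adjusted p being 0.399, while 31 had an unadjusted p under 0.05 and DESeq2 called 4 higher and 1 lower. The fitted log2 fold-change was 0.83 for miR-224 (edgeR, adjusted p = 0.811) and 0.71 for miR-452 (edgeR, adjusted p = 0.885). The Hep3B libraries together contributed 1 count of miR-224 and 3 of miR-452 to these fits. When each library was left out in turn, the model had no block, so differences between the lines and between the states were not kept apart. Without the Hep3B library the fitted values of miR-224 and miR-452 became -0.30 and -0.70, and without Huh7-C they became -10.42 and -11.05. Without Huh7 they became 13.75 and 15.43, and without Hep3B-C both stayed positive. A change with the stem-like state alone was not tested by the fits that left a library out.

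The differences between the parent lines were far larger than those within either pair. With 3 counts taken as the limit in Hep3B, the lower bound of the TPM fold (Huh7 over Hep3B) was 5145 for miR-452 and 1225 for miR-224. The lower limits of the 95% exact intervals were smaller, at 4183 and 995. The bounds against 3 counts were lower under the other library sizes. They were lowest with total miRNA counts, at 986-fold for miR-452 and 235-fold for miR-224. Ranked by fold with counts under 3 raised to 3, miR-452 stood at 2 and miR-224 at 5 of the 828 miRNAs tested between the parent lines, under each of the 4 library sizes. By TPM 32.4% of these miRNAs were called higher in Huh7 and 9.18% lower (268 and 76), a balance that turned to 83 higher and 249 lower with total miRNA counts. The difference was present again between the HCSCs. Huh7-C exceeded Hep3B-C 3836-fold in miR-224 (95% exact interval 688 to 151571, on 1 count in Hep3B-C) and 4072-fold in miR-452 (1393 to 19751, on 3 counts). The ranks there, found in the same way, were 3 and 1 of 868, with 13.6% called higher in Huh7-C and 23% lower.

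Each member was higher in both Huh7 libraries than in both Hep3B libraries. The HCSCs were derived from the parent lines, so the libraries of 1 line are not independent samples of it, and no test across all 4 libraries is given for this difference.

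**Figure D4:**
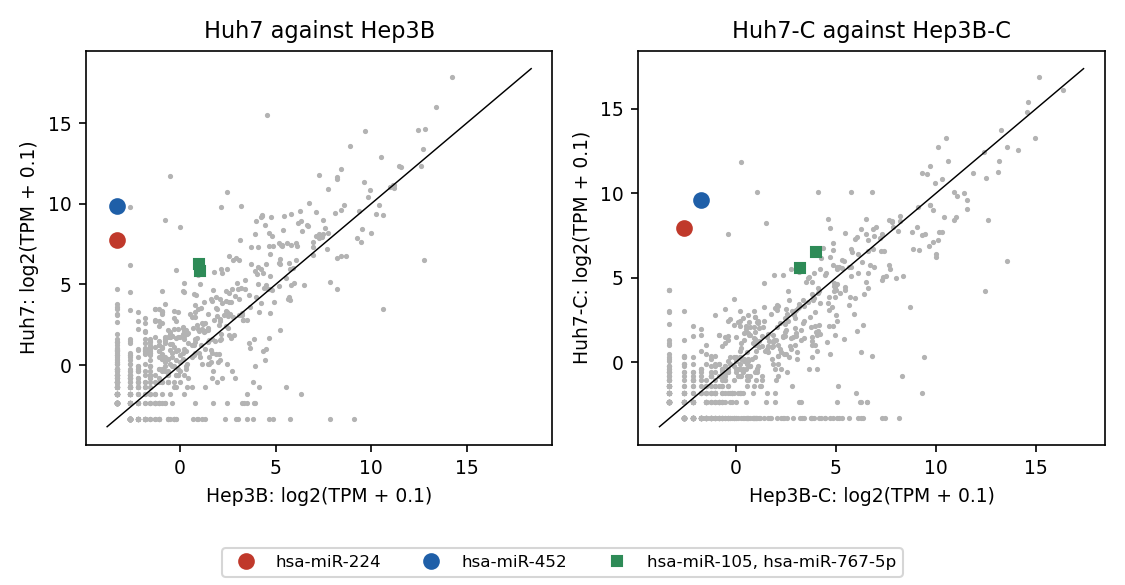
Level of each miRNA as log2(TPM + 0.1) in Huh7 against Hep3B (left) and in Huh7-C against Hep3B-C (right), with the diagonal marking equal levels, grey points for all miRNAs with at least 1 count, coloured circles for the members and green squares for hsa-miR-105 and hsa-miR-767-5p. The members lie at the upper left of both panels, at 219 and 920 TPM in Huh7 against 0 in Hep3B.

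The ratio of the members within a library does not depend on the library size. Each read stands for 1 mature miRNA, so no correction for length was made. There were 4.20 counts of miR-452 for each count of miR-224 in Huh7 (95% exact interval 4.01 to 4.40) and 3.18 in Huh7-C (3.05 to 3.33). In Hep3B-C the ratio of 3 counts to 1 was 3.0, with an interval of 0.241 to 157 that holds both Huh7 values, and Hep3B gave no ratio. From Huh7 to Huh7-C the log2 ratio changed by -0.40 (interval -0.49 to -0.31), which was larger than counting error (Fisher's exact test, adjusted p = 3.33e-17 over 6 pairs of libraries). The other 5 pairs include a Hep3B or Hep3B-C library with at most 4 counts of both members, and could show no difference. With both arms of each hairpin summed the change was again -0.40.

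Larger changes were found in most other pairs of miRNAs that share a transcript. Of 24 other pairs of guides known to be transcribed together, 17 had at least 10 counts of each guide in both Huh7 libraries. The absolute log2 change of their ratio ranged from 0.118 to 2.15 with a median of 0.79, it was larger than that of the members in 14 of 17 pairs, and in 14 pairs its interval left out 0. The ratio of hsa-miR-30b to hsa-miR-30d changed the most, by -2.15 on the log2 scale. Some of the larger changes rested on few counts, with intervals that held changes as small as that of the members. The ratio of hsa-miR-181c to hsa-miR-181d, for example, changed by -0.50 (interval -1.24 to 0.23). These pairs are given as a description with no test.

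**Figure D5:**
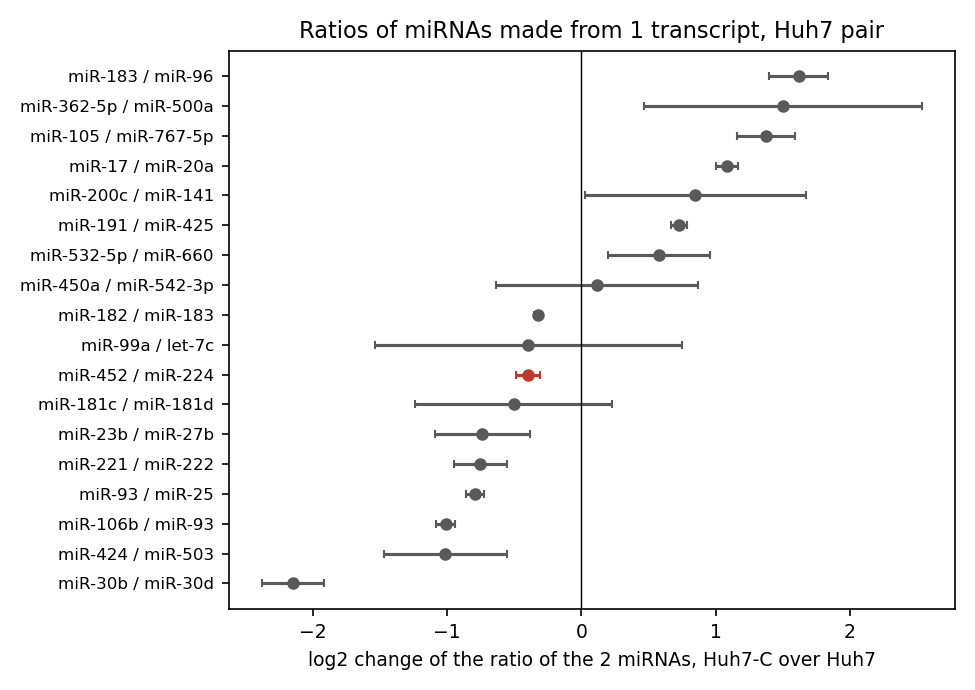
Log2 change of the ratio of 2 miRNAs made from 1 transcript, Huh7-C over Huh7, for the members (red) and 17 other pairs (grey), with 95% intervals from the counts. The change of the members, -0.40, lies near 0 within a range that runs from -2.15 to 1.62.

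The passenger arms were rare wherever they could be measured. Hsa-miR-452* was counted 0 times in Hep3B and Hep3B-C, 93 times in Huh7 and 85 times in Huh7-C. It made up 0.943% of the counts of its hairpin in Huh7 (95% Clopper-Pearson interval 0.762% to 1.15%) and 0.993% in Huh7-C (0.794% to 1.23%), a difference within counting error (Fisher's exact test, adjusted p = 1.0 over 4 tests). Hsa-miR-224* was counted 4 times in Huh7, 0.172% of its hairpin's counts (0.0468% to 0.439%), and 0 times in the other 3 libraries. In Huh7-C, 0 of 2662 counts allows a share of up to 0.138% by the same kind of interval. The difference from Huh7 did not pass the test (Fisher's exact test, p = 0.0474, adjusted p = 0.190). The 4 tests behind that adjustment include those of the Hep3B pair, which had 0 passenger counts and could show no difference. Per hairpin, the passenger arm of miR-452 was thus the more frequent in both Huh7 populations.

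The nearest miRNA genes on the X chromosome were read for comparison. MIR2114 and MIR4330 had 0 counts in all 4 libraries. MIR105-1, MIR767 and MIR105-2 lie 432506 bases and more from MIR452 in intron 1 of GABRA3, which encodes the alpha-3 subunit of the same receptor. Hsa-miR-105, whose reads cannot be assigned to 1 of its 2 loci, had 33 counts in Hep3B, 250 in Hep3B-C, then 593 in Huh7 and 977 in Huh7-C. Hsa-miR-767-5p had 32, 142, 816 and 519 counts. Unlike the members, both were measurable in Hep3B. Both were called higher in Hep3B-C, as were 33% of the 834 miRNAs tested in that pair, where the members had too few counts to compare. Their log2 fold-changes per total reads were 3.04 for hsa-miR-105 (interval 2.51 to 3.61) and 2.27 for hsa-miR-767-5p (1.71 to 2.87). The median over the 345 miRNAs with 10 or more counts in each library of that pair was 1.25. With total miRNA counts the values were 1.28 and 0.51, and the call of hsa-miR-767-5p was lost there and with TMM sizes (0.86). Between the parent lines their log2 fold-changes were 4.83 and 5.33 per total reads. The log2 bounds of the members against 3 counts in Hep3B were 10.26 for miR-224 and 12.33 for miR-452 on that scale. With total miRNA counts, a size that shifts all miRNAs alike, the bounds were 7.88 and 9.95.

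The miRNAs whose profile over the 4 libraries was most like that of the members were found among the 443 miRNAs that reached 10 counts in 2 or more libraries, by the root mean square difference of centred log2 levels. For miR-224 they were hsa-miR-196a (0.30), hsa-miR-452 (0.78), hsa-miR-34c-5p (1.16), hsa-miR-3660 (1.97) and hsa-miR-10b (2.05). For miR-452 they were hsa-miR-224 (0.78), hsa-miR-196a (0.99), hsa-miR-34c-5p (1.49), hsa-miR-3660 (2.69) and hsa-miR-10b (2.80). Hsa-miR-196a, a miRNA of the HOX gene clusters, was at 10 and 17 counts in the Hep3B populations and 35807 and 39922 counts in Huh7 and Huh7-C. The members had 0 to 3 counts in the Hep3B populations, where their log2 levels were set largely by the 0.5 counts added, so the order of likeness says little about them.

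The few counts of the members in Hep3B-C corresponded to 0.0296% of the Huh7 level for miR-224 (95% exact interval 0.000748% to 0.165%) and to 0.0211% for miR-452 (0.00436% to 0.0618%). For hsa-miR-196a the level in Hep3B-C was 0.0327% of that in Huh7 (0.0190% to 0.0523%), and for hsa-miR-34c-5p 0.0733% (0.0351% to 0.135%). For hsa-miR-10b it was 0.116% (0.0784% to 0.166%), above the interval of miR-452. Hsa-miR-3660 had 0 counts there, which allows up to 1.77% of its Huh7 level. In Hep3B both members had 0 counts. The level there was 0.0177% of that in Huh7 for hsa-miR-196a, 0.00674% for hsa-miR-34c-5p and 0.321% for hsa-miR-10b. These miRNAs were picked for having a profile like that of the members. The source of the counts in Hep3B and Hep3B-C was not tested.

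Other miRNAs known to be raised or lowered in liver cancer were read as lists of guides. Of the 24 raised ones, 22 were tested in each pair. In the Hep3B pair 9 were called higher and 2 lower in Hep3B-C (40.9% and 9.09%, against 33% and 2.52% of all miRNAs tested), with a median log2 fold-change of 0.999 against 1.45 over all miRNAs tested. In the Huh7 pair 0 were called higher and 5 lower in Huh7-C (22.7% lower, against 17.1%), with a median of -0.41 against -0.62. Hsa-miR-210, a miRNA induced by hypoxia, was lower in both HCSCs, with log2 fold-changes of -2.17 (Hep3B pair) and -2.27 (Huh7 pair). The largest called increases of this list in the Hep3B pair were hsa-miR-9 (2.57) and hsa-miR-182 (2.24), among miRNAs at 10 counts or more in both libraries. Of the 27 lowered ones, 13 were called higher and 2 lower of 26 tested in the Hep3B pair (50% and 7.69%, median 1.29 against 1.45 over all). In the Huh7 pair 1 was called higher and 10 lower of 25 (4.0% and 40%, against 2.98% and 17.1%, median -0.97 against -0.62). By the same count filter, the largest increase and decrease called in the Hep3B pair were hsa-miR-122 (8.68) and hsa-miR-29c (-1.48). In the Huh7 pair they were hsa-miR-375 (1.36), also called higher in the Hep3B pair (3.30), and hsa-miR-34a (-3.62). Between the parent lines, raised miRNAs were ranked by fold only if called and at 10 counts or more in both libraries. Of these, hsa-miR-10b had the highest fold, at a log2 fold-change of 8.28 per total reads. The bounds of both members, 10.26 and 12.33, were higher, but with 0 counts in Hep3B neither would pass that filter. Of the lowered ones, hsa-miR-122 reached 10.93 under the same filter, above the bound of miR-224.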

How the data were processed

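Small RNA libraries of 4 cell populations, 1 per population, were read with an Illumina Genome Analyzer II. Before deposit the authors aligned the filtered reads (length of 18 nt or more) with SOAP to NCBI Build 36.1, took out the other classes of small RNA and named the miRNAs from miRBase release 17. The deposited values are raw read counts of 1733 mature miRNAs, with no normalization. The version of SOAP and the mismatches allowed are not given in the sources used here.

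Counts were divided by the total reads per library that the study states to give TPM. Library pairs were compared by Audic and Claverie's exact test, 2-sided, over miRNAs seen at least 1 time in the pair, with a TPM of 0 set to 0.001 for the fold. The p kept the observed count in both tails. A p that leaves it out of the upper tail, as the study's p-values for increases do, was compared after the calls had been seen. It gave 284 rather than 275 higher calls in the Hep3B pair and 24 rather than 23 in the Huh7 pair, left the lower calls of both pairs as they were, and called neither member in these pairs. The first form was kept as the main test, a choice made with both sets of calls known.

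The joint model used edgeR's quasi-likelihood test (TMM, parent line as block, adjusted p of 0.05), with 1 residual degree of freedom. The block follows from the derivation of each HCSC line from its parent. Ratios were compared by Fisher's exact test. Intervals are 95% and, like the floor of 3 counts, cover counting error only, since PCR reads are not independent molecules. The alternatives were 3 other library sizes, a pseudocount of 1 TPM, a minimum of 10 counts, edgeR's exact test (biological coefficient of variation set to 0.2 or 0.4), DESeq2, no filter, no block and each library left out. The pair test and the joint model were also run on simulated counts. For the pair test these held Poisson noise only, so they say nothing about variation between cultures. In the data the joint model put the common biological coefficient of variation at 0.546.

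The members and lists were chosen with earlier results of these data known. Besides the members, the miRNAs named are their other arms and those sharing a seed, the miRNAs of GABA receptor genes, the 5 most alike in profile, the largest calls of the liver cancer lists, and pairs of guides from 1 transcript. Tools were R 4.3.3, edgeR 4.0.16, DESeq2 1.42.0, Python 3.11.15, numpy 2.4.6, scipy 1.17.1 and pandas 2.3.3. The mRNA libraries were not analysed here.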

Additional observations from a re-analysis of the deposited data

How the results depend on the processing

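Of 160 recomputed values, 123 kept their direction and their side of the test's threshold, whatever else their size did. For a count of calls, this meant a size within 1.5 times. A further 7 reversed, and 11 counts of calls rose and 19 fell by more than that. Some directions could not have turned. A set coefficient of variation, another tail or a minimum count leaves the fold as it was. No direction was scored for the members in the Hep3B pair. The 123 therefore does not measure how firm the results are. Neither member was called in the Hep3B or Huh7 pair under any alternative run, and both stayed higher in the Huh7 populations under all of them. The log2 fold-change of miR-452 in the Huh7 pair reversed from -0.22 to 0.30 with total miRNA counts, 0.10 with TMM sizes and 0.36 with DESeq2 size factors, since these sizes shift all miRNAs.

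The counts of calls moved in the same way. Higher calls in the Hep3B pair fell from 275 to 44 with total miRNA counts, 71 with TMM, 92 with DESeq2 size factors and 25 with a coefficient of variation of 0.4. Lower calls there went from 21 to 112, 76 and 59 under those sizes, and to 9 and 0 with a coefficient of 0.2 and 0.4 (edgeR exact test). In the Huh7 pair, higher calls went from 23 to 54, 38 and 57 under those sizes, and to 15 and 5 with a coefficient of 0.2 and 0.4. Lower calls fell to 74 with total miRNA counts, 71 with DESeq2 size factors, and 69 and 10 with the coefficients.

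The lower bounds between the parent lines fell from 10.26 and 12.33 (log2) to 7.88 and 9.95 with total miRNA counts, 8.80 and 10.87 with TMM and 8.81 and 10.88 with DESeq2 size factors, and with a pseudocount of 1 TPM the fold, no longer a bound, was 7.78 and 9.85. The calls there turned from 268 higher and 76 lower to 83 and 249, 128 and 162, and 129 and 162 under those sizes.

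In the joint model DESeq2 called 4 miRNAs higher and 1 lower in place of 0 and 0. When each library was left out in turn, with no block and with the lone library of an arm assumed to vary like the others, the fitted log2 fold-change ranged from -10.42 to 13.75 for miR-224 and from -11.05 to 15.43 for miR-452. It was negative without Hep3B (-0.30 and -0.70) and without Huh7-C, and not called in any. The replicate block changed no call of a member, the values without it being 0.69 and 0.29 (edgeR). A test of the parent line term, added after the counts were seen, is not reported, because the members passed its count filter only through the Huh7 libraries. The guide to passenger ratio without added counts could not be formed for miR-224 in Huh7-C. The depth limits statements on Hep3B and Hep3B-C to levels above 3 counts.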

Other observations

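The arms of hsa-miR-767, from GABRA3, did not move together in the Huh7 pair. Hsa-miR-767-3p fell from 130 counts in Huh7 to 3 in Huh7-C, a log2 fold-change of -5.45 (95% exact interval -7.75 to -3.87; Audic and Claverie exact test, adjusted p = 1.75e-34), and it was at 0 in Hep3B and Hep3B-C. Hsa-miR-767-5p went from 816 to 519 counts, a log2 fold-change of -0.67 (interval -0.83 to -0.50), which was not called. The arm was one of those named by rule, and the difference between the arms was not tested.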
